A study of Mus musculus with 7 samples.

Results

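The Cyp2b genes encode cytochrome P450 enzymes of liver, and Nr1i3 encodes the constitutive androstane receptor (CAR), the nuclear receptor that switches the classical member Cyp2b10 on. Of 8 genes listed by symbol (Cyp2b9, Cyp2b10, Cyp2b13, Cyp2b23, Nr1i3, Por, Alas1 and Gadd45b), 7 had a probe with that single symbol in the platform annotation, among 16468 named genes in all. Nr1i3 was read by 2 probes, which were averaged, and each of the other 6 by 1 probe. Por, the reductase that passes electrons to all microsomal P450 enzymes, had no probe with its symbol there and was not analysed here. The genes were chosen by their differences between transgenic and wild-type animals in these same data. Those differences, and the counts of calls made on them, are therefore a description and not a test.

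Liver RNA of 7 mice was compared on 2-colour arrays with a reference that pooled the livers of 4 wild-type mice, males and females. The animals were 4 wild-type littermates (1 female and 3 males) and 3 transgenics for Zfp90, a zinc finger protein (1 female and 2 males). No treatment is named in the labels. The age of the animals, their strain and the promoter of the transgene are not given in the sources used here. Values are log2 ratios of animal to pool except where a fold is named. A value of 0 means the level of the pool. No absolute level of any transcript is known. The animals carry the numbers of the labels: wild-type female 3 and males 2, 3 and 4, and transgenic female 1 and males 1 and 2.

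P450 enzymes of the Cyp2b group oxidise drugs and steroids in the endoplasmic reticulum of hepatocytes. CAR is held in the cytoplasm of resting hepatocytes, moves to the nucleus on exposure to phenobarbital-like compounds, pairs there with RXR and raises transcription of Cyp2b10 and other genes of drug clearance. In mouse liver Cyp2b9 and Cyp2b13 are known as genes of the female pattern that growth hormone secretion maintains, whereas Cyp2b10 is the member used as the readout of CAR. Alas1 makes the first precursor of haem, the prosthetic group of every P450, and Gadd45b is a stress-inducible gene that CAR activators raise in hepatocytes.

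The sequences upstream of the 4 Cyp2b genes are shown because Cyp2b9 and Cyp2b13, whose values below run close together, are near copies there and the other 2 genes are not. Each is the stretch of 250 bases before the start site that RefSeq gives (build GRCm38.p6, promoter windows found for all 8 genes by symbol), read 5′ to 3′ on the strand of the gene. Capitals mark the letters AGGTCA, the core element of many nuclear receptor sites, and TTGCATAA, both searched on both strands with overlapping matches allowed.
Cyp2b9, chr7:26173159-26173408, plus strand: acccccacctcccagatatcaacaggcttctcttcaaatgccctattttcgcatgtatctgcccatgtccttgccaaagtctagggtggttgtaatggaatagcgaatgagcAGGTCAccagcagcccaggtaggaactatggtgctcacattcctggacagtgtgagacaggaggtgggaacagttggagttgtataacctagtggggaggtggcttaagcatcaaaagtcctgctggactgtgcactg
Cyp2b13, chr7:26061245-26061494, plus strand: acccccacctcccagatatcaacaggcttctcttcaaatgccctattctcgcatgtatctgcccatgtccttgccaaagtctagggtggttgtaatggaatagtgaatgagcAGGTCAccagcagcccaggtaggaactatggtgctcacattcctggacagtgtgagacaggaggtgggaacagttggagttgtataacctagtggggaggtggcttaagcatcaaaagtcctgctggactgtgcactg
Cyp2b10, chr7:25897408-25897657, plus strand: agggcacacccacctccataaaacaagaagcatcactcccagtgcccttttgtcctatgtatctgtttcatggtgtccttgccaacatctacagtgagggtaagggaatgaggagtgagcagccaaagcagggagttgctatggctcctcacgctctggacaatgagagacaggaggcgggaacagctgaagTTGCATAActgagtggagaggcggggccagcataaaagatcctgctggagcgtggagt
Cyp2b23, chr7:26686431-26686680, minus strand: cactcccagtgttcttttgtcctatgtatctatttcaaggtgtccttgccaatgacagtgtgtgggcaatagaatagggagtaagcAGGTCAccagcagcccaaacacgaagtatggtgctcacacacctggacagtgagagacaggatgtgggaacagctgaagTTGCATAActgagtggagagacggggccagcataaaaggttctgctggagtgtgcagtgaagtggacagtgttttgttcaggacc

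The windows of Cyp2b9 and Cyp2b13 were identical at 248 of 250 positions. Counted from 1 at the 5′ end of the window and read from Cyp2b9 to Cyp2b13, they differed by T48C and C104T. In global alignments that count gaps as mismatched columns, Cyp2b10 shared 70.0% of columns with each of that pair and 62.8% with Cyp2b23, and Cyp2b23 shared 63.0% with Cyp2b9 and with Cyp2b13. The window of Cyp2b23 is offset, as TTGCATAA began 85 bases before its start site and 58 before that of Cyp2b10. Gaps at the ends thus lower its shares, which do not rank how alike the sequences are. AGGTCA stood in the windows of Cyp2b9, Cyp2b13 and Cyp2b23 and in 14.0% of all 32851 windows of that length. TTGCATAA stood in those of Cyp2b10 and Cyp2b23 and in 0.694% of all windows. The STAT5-type letters TTCNNNGAA were in none of the 4 and in 7.02% of all. Of the other genes, 1 of the 2 windows of Alas1 held TTCNNNGAA, and the windows of Nr1i3, Por and Gadd45b held none of the 3 motifs. These are matches of letters that were chosen after the sequences had been read, and a missing match refers to these windows alone.

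Zfp90 was read first as a check of the labels. Transgenic males stood at 0.58 and 0.45, and wild-type males at -0.15, -0.29 and -0.11. The females did not separate, with 0.34 in the transgenic and 0.37 in the wild-type female, so the wild-type female read like the transgenic animals for this gene. The cause was not tested, and with 1 female per genotype sex, label and animal cannot be told apart. The genotype and sex differences of the 7 genes are also given without the array of the wild-type female. For genotype, leaving it out gives the difference in the males. The Y-linked Kdm5d read -3.22 and -2.54 in the females and 0.14 to 0.66 in the males, as their labels give the sexes, while the Y-linked Uty lay between -0.18 and 0.15 on all arrays. Array medians lay between -0.01 and 0.03. Over all probes, 3 of 21 pairs of arrays correlated below -0.3, the lowest at -0.497. The direction, animal over pool, was kept because Kdm5d read far below the pool of both sexes in the females alone. The labels also give the animal's RNA as Cy5 on every array, but how dye swaps were combined is not given.

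Cyp2b9 and Cyp2b13 were far lower in wild-type males than in either female, and the transgenic males lay between. Cyp2b9 read -2.52, -2.51 and -2.27 in wild-type males 2, 3 and 4, and 0.11 and -0.41 in transgenic males 1 and 2. In the females it was 1.66 (wild type) and 1.97 (transgenic). Both transgenic males were above every wild-type male, with a gap of 1.86 between the nearest animals of the groups, and all 5 males were below both females. On the linear scale the transgenic males held 34.3% and 23.9% of the wild-type female's Cyp2b9 level, and the wild-type males 5.52% to 6.58%. Cyp2b13 read -3.37, -3.20 and -2.98 in the wild-type males, -0.64 and -1.06 in their transgenic counterparts, and in the females 1.73 (wild type) and 1.64 (transgenic). Again the male groups did not overlap, with a gap of 1.92, and transgenic males held 14.5% to 19.4% of the wild-type female's level against 2.93% to 3.82% in wild-type males. The difference between transgenic and wild-type males was 2.29 ± 0.18 SE for Cyp2b9 (4.88-fold) and 2.33 ± 0.17 SE for Cyp2b13 (5.04-fold). Between the females it was 0.31 for Cyp2b9 and -0.09 for Cyp2b13, with 1 animal a side and no spread. Transgenic male 1 was above transgenic male 2 in both genes. The probe sequences were not used here, and how far each probe reads the other gene of this near-identical pair was not tested.

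**Figure D1:**
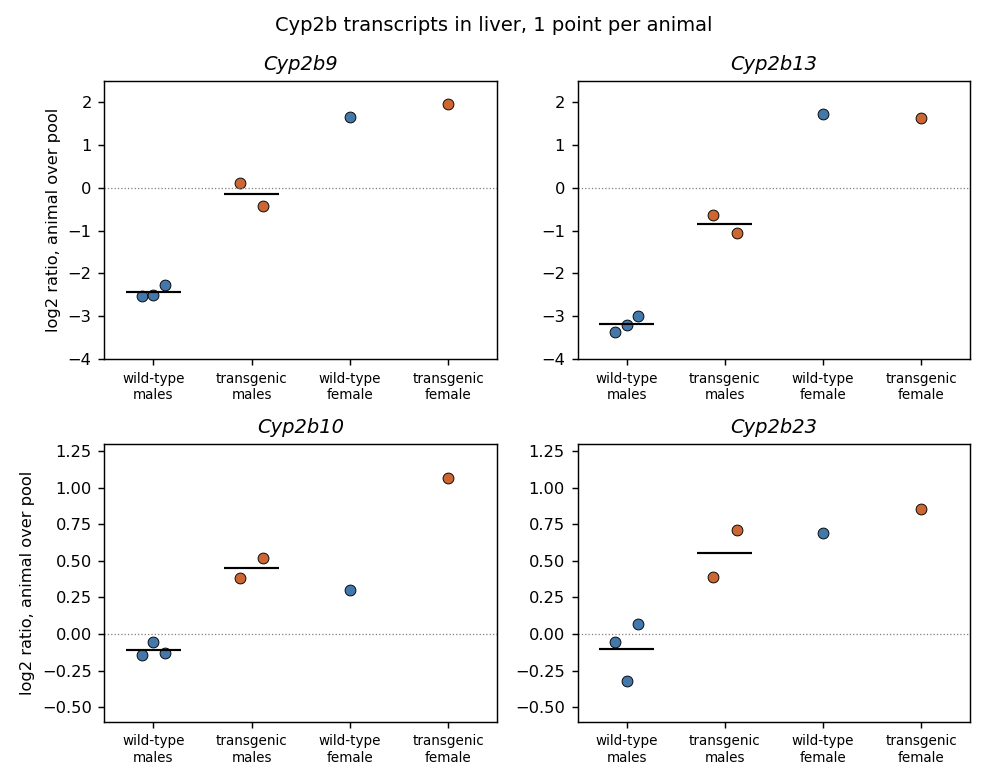
Log2 ratio of each animal to the wild-type pool (vertical axis) for the 4 Cyp2b genes, by genotype and sex, with a point per animal and a bar at the mean of each male group. The transgenic males stand between the wild-type males and the females in Cyp2b9 and Cyp2b13, and the upper and lower rows have different scales.

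Cyp2b10, the CAR readout, was higher in all 3 transgenic animals, by a smaller amount. Transgenic males 1 and 2 read 0.38 and 0.52 and the transgenic female 1.07, against -0.14, -0.06 and -0.13 in the wild-type males and 0.30 in the wild-type female. The genotypes did not overlap, and the highest wild-type value came from the female whose Zfp90 ratio lay with the transgenic animals. Transgenic animals averaged 0.65 ± 0.36 (SD, n = 3), and wild-type animals averaged -0.01 ± 0.21 (SD, n = 4). In a model with genotype and sex the difference was 0.62 ± 0.09 SE (1.54-fold), and 0.56 ± 0.11 SE without the wild-type female, when the value comes from the males alone. Between the females it was 0.77 (1.70-fold). The transgenic female was the highest of all 7 animals in this gene, whereas in Cyp2b13 it was below the wild-type female.

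Cyp2b23, a less studied member of the family, read 0.39 and 0.71 in the transgenic males and -0.05, -0.32 and 0.06 in the wild-type males, so the males did not overlap. The transgenic female read 0.85 and the wild-type female 0.69. Transgenic male 2 and the 2 females were within 0.16 of each other. Its difference was 0.51 ± 0.15 SE over all animals (1.42-fold) and 0.65 ± 0.16 SE in the males (1.57-fold), which is also the value without the wild-type female.

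The receptor itself, Nr1i3, read slightly lower in transgenic animals. Averaged over its probes it read -0.15 and -0.30 in transgenic males 1 and 2, -0.21 in the transgenic female, -0.03, -0.12 and -0.12 in the wild-type males and 0.19 in the wild-type female. In that average all 3 transgenic values were below all 4 wild-type values, the nearest being -0.15 and -0.12. The difference was -0.21 ± 0.10 SE, and -0.13 ± 0.11 SE without the wild-type female. The 2 probes differed from each other. The first gave -0.03 ± 0.11 SE for the genotype difference, with the transgenic female at 0.10 and the wild-type female at -0.06. The second gave -0.39 ± 0.17 SE, with the females at -0.51 and 0.44. The probes thus parted in the females, and neither probe alone separated the genotypes. On the first, wild-type male 4 read -0.08 and transgenic male 1 -0.03. On the second, wild-type male 3 read -0.35 and transgenic male 1 -0.27, so the males overlapped on each. The range of Nr1i3 over the 7 animals was 0.49, close to the median range of 0.46 of all named genes.

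Alas1, the rate-limiting enzyme of haem synthesis, had its lowest values in transgenic animals. It read -2.49 in the transgenic female and -1.37 and -0.52 in transgenic males 1 and 2, against 0.15 in the wild-type female and -0.70, -0.03 and 0.31 in wild-type males 2, 3 and 4. Wild-type male 2 was below transgenic male 2, so the genotypes overlapped, and the 2 lowest animals were both transgenic. The transgenic female held 16.1% of the wild-type female's level. The difference was -1.34 ± 0.41 SE over all animals and -0.80 ± 0.35 SE in the males, a 2.54-fold and a 1.75-fold lower level. Leaving out transgenic male 1 moved the difference in males to -0.38. The transgenic female was thus the lowest animal in Alas1 and the highest in Cyp2b10.

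Gadd45b had its highest value in the wild-type female and its lowest values in wild-type males. It read 1.28 in the wild-type female and -1.17, -0.71 and -1.36 in the wild-type males. In transgenic animals it read -0.11 in the female, -0.14 in male 1 and -0.77 in male 2. The 3 transgenic values lay inside the range of the wild-type values. Its genotype difference went in opposite directions in the sexes: 0.62 ± 0.25 SE in the males, where transgenic male 2 overlapped wild-type male 3, and -1.39 between the females. The difference in males was 0.31 without transgenic male 1 and 0.93 without transgenic male 2. Over all animals the sexes gave 0.03 ± 0.39 SE.

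**Figure D2:**
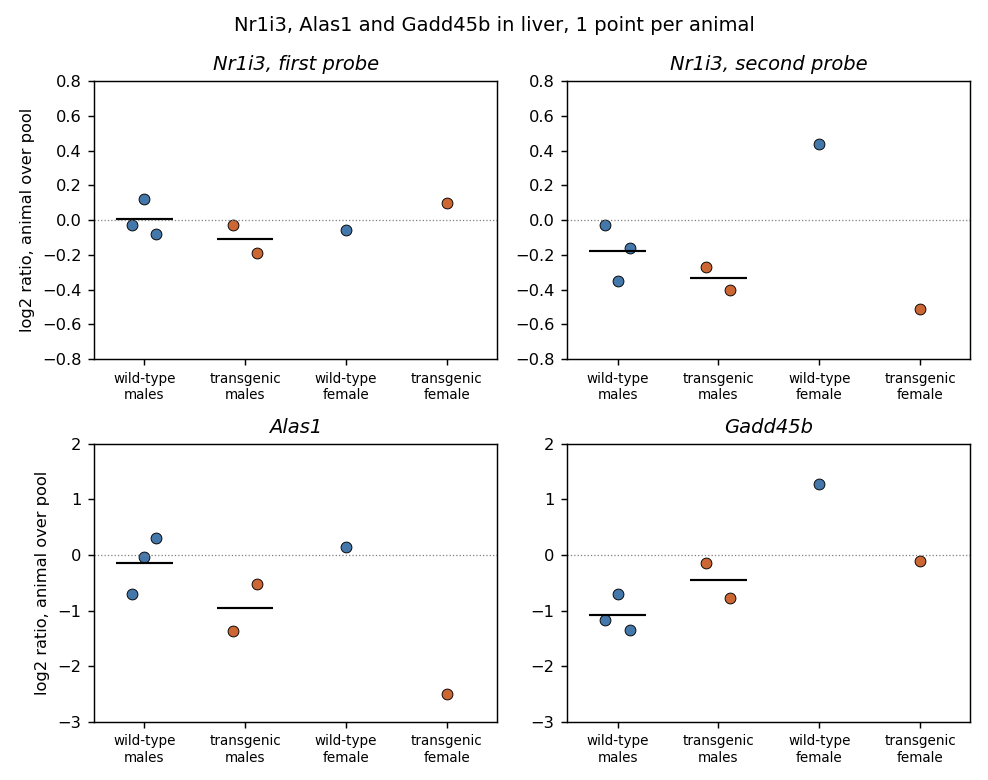
Log2 ratio of each animal to the pool (vertical axis) for the 2 Nr1i3 probes, Alas1 and Gadd45b, by genotype and sex, with a point per animal and a bar at the mean of each male group. The second Nr1i3 probe and Gadd45b are highest in the wild-type female, and Alas1 is lowest in the transgenic female.

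In the fit over all 7 animals limma called 0 of the 7 genes, where 0% of all 22218 features were called. At an unadjusted p under 0.05 it had 5 of the 7 and 1536 features (6.91%). In the males alone it called 2, Cyp2b9 and Cyp2b13, where 0.0315% of features were called (0.0225% higher and 0.009% lower), and 5 of the 7 had an unadjusted p under 0.05 (6.96% of features). Without overlap between all transgenic and all wild-type animals, 1 of 7 was higher (Cyp2b10, background 3.17%) and 1 lower (Nr1i3, background 2.84%). In the males 4 of 7 were higher without overlap, the 4 Cyp2b genes (11.2%), and 1 lower, Nr1i3 (11.4%). Nr1i3 was counted here as the mean of its 2 probes, and neither probe alone was free of overlap. The median difference of the 7 genes was 0.51 over all animals and 0.62 in the males, beside -0.01 and -0.02 over all features. The genes were listed with this contrast in view, and the males are a part of it. These values and calls only describe the genes and are not a test of them. The call in the males ended for both genes without wild-type male 2, wild-type male 3, transgenic male 1 or transgenic male 2, which left 0 called, and was kept without wild-type male 4.

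**Figure D3:**
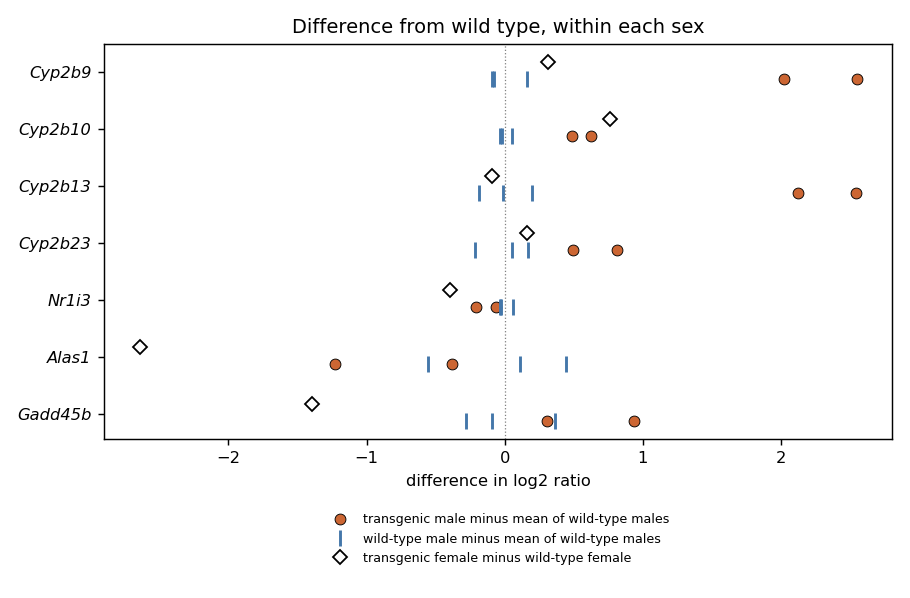
Difference in log2 ratio from wild type (horizontal axis) within each sex for the 7 measured genes. Filled circles are the 2 transgenic males and blue ticks the 3 wild-type males, each minus the mean of the wild-type males, and open diamonds are the transgenic minus the wild-type female. Males stand far from 0 in Cyp2b9 and Cyp2b13 where the females lie near 0, and Gadd45b lies on opposite sides.

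The sexes were compared in the same model, a contrast that was not used to list the genes. Cyp2b9 and Cyp2b13 were higher in females and passed the threshold. Cyp2b9 differed by 3.16 ± 0.39 SE (8.96-fold, 95% interval 2.25 to 4.08, limma adjusted p = 0.0248) and Cyp2b13 by 3.77 ± 0.47 SE (13.6-fold, 2.67 to 4.86, adjusted p = 0.0248). Each female was above each of the 5 males in both genes. Over all features 0.351% were called (0.167% higher in females and 0.185% lower), and females stood above all males in 6.04% and below in 6.83%. At an unadjusted p under 0.05 there were 5 of the 7 genes and 9.23% of features. Without the wild-type female the difference was 2.12 for Cyp2b9 (adjusted p = 0.0488) and 2.49 for Cyp2b13 (adjusted p = 0.019), and without the transgenic female 4.09 and 4.91. Both calls ended, with the direction kept, without wild-type male 2 (adjusted p = 0.0729 and 0.0674), without wild-type male 4 (0.0747 for both), without transgenic male 2 (0.0841 and 0.0798) and without the genotype term (0.196 and 0.124). Over all alternatives the adjusted p ran from 0.000929 to 0.196 for Cyp2b9 and from 0.000324 to 0.124 for Cyp2b13.

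The other 5 genes did not pass for sex. Gadd45b was 1.41 ± 0.43 SE higher in females (2.66-fold, adjusted p = 0.346), with both females above all males. Without the transgenic female it was 2.36 and passed (adjusted p = 0.0291), and without the wild-type female 0.35. Cyp2b10 differed by 0.51 ± 0.10 SE (adjusted p = 0.137) and Cyp2b23 by 0.56 ± 0.17 SE (adjusted p = 0.331), each with a male above a female. Without the wild-type female these were 0.62 (adjusted p = 0.308) and 0.30 (adjusted p = 0.661). Nr1i3 differed by 0.16 ± 0.11 SE (95% interval -0.09 to 0.40, adjusted p = 0.745), and by 0.018 without the wild-type female. For Alas1 the value was -0.58 ± 0.45 SE (adjusted p = 0.779), 0.29 without the transgenic female and -1.55 without the wild-type female.

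Whether the genotype difference was the same in both sexes was asked with the interaction of genotype and sex, which has 1 female per genotype, so that its spread comes from the 5 males. Limma called 0 of the 7 genes and 0.072% of all features (0.045% higher and 0.027% lower), and 4 of the 7 had an unadjusted p under 0.05 (8.42% of features). Taken as the difference in females minus that in males, the interaction was -2.42 ± 0.32 SE for Cyp2b13 (95% interval -3.20 to -1.65, adjusted p = 0.112) and -1.97 ± 0.33 SE for Cyp2b9 (-2.77 to -1.18, adjusted p = 0.209). For Gadd45b it was -2.01 ± 0.46 SE (adjusted p = 0.329) and for Alas1 -1.83 ± 0.65 SE (adjusted p = 0.527). For Cyp2b10 the interaction was 0.21 ± 0.19 SE (-0.26 to 0.67, adjusted p = 0.78), an interval that leaves room for a difference as large as the genotype difference itself. Without wild-type male 4 the interaction of Cyp2b13 passed (adjusted p = 0.0366). The intervals are those of single genes and are not adjusted.

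**Figure D4:**
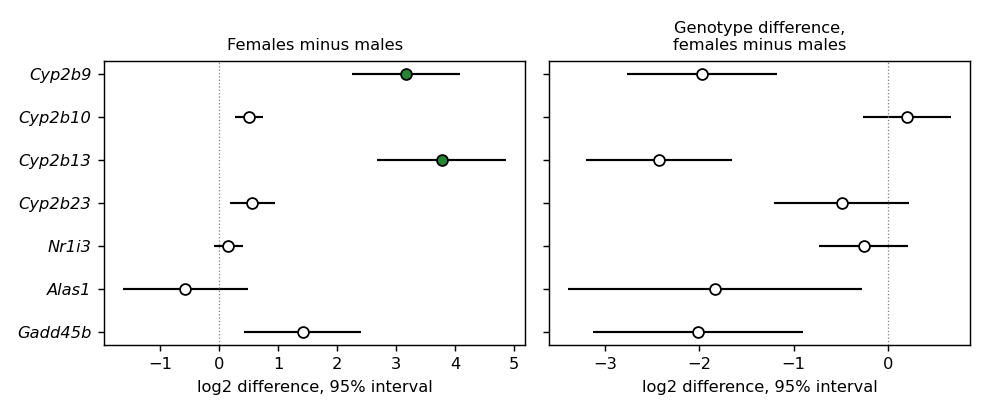
Left, log2 difference of females minus males, and right, genotype difference in females minus that in males (horizontal axes), with 95% intervals from limma for the 7 measured genes. Filled points passed an adjusted p of 0.05 over all features, and only Cyp2b9 and Cyp2b13 in the left panel did.

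Other genes that CAR is known to induce had differences on both sides of 0. Of 21 listed, 18 were measured, and 13 had a positive and 5 a negative genotype difference, with a median of 0.16 beside -0.01 over all features. Without the wild-type female 11 of the 18 were positive. Limma called 0 of the 18, and the list was written with earlier results known. Aldh1a7, an aldehyde dehydrogenase, had the largest difference at 0.84 ± 0.20 SE (0.52 ± 0.12 SE in the males). It stood at 0.79, 0.55 and 0.87 in transgenic males 1 and 2 and the transgenic female, 0.17, 0.11 and 0.17 in the wild-type males and -0.74 in the wild-type female, with no overlap. Cyp3a11, the main drug-oxidising P450 of the 3a group, was on the other side at -0.77 ± 0.38 SE, with -0.91, 0.00 and -1.55 in transgenic animals and -0.74 to 0.75 in wild type. Thrsp, a lipogenic gene, differed by 0.69 ± 0.32 SE and the P450 Cyp2c55 by 0.58 ± 0.22 SE (0.34 ± 0.22 SE in the males). Between the sexes 6 of the 18 were higher and 12 lower in females, with a median of -0.26. Without the wild-type female that median was -0.04, again with 6 higher. Over all animals limma called 2, both higher in females, and neither call was kept without the wild-type female. They were the P450 Cyp2c37 (1.99 ± 0.25 SE, limma adjusted p = 0.0247) and the export pump Abcc4 (0.97 ± 0.12 SE, adjusted p = 0.0267).

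Partners and regulators of CAR had a median genotype difference of -0.03, with 8 of 18 measured positive and 0 called, against a median of 0.05 and 11 of 18 positive without the wild-type female. Egfr, the growth factor receptor whose signal holds CAR in the cytoplasm, differed by -0.59 ± 0.25 SE. The repressor Nr0b2 read -0.46, -0.68 and -0.48 in transgenic males 1 and 2 and the transgenic female, below all wild-type values (-0.08 to 0.22), a difference of -0.57 ± 0.11 SE. Hsp90aa1, a chaperone of the cytoplasmic receptor complex, differed by -0.47 ± 0.12 SE, and the coactivator Ppargc1a by 0.46 ± 0.14 SE. Egfr was the 1 gene of this list called for sex, at -2.22 ± 0.27 SE in females against males (4.65-fold lower, adjusted p = 0.0247), and was not called without the wild-type female.

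The haem pathway beyond Alas1 had 5 of 10 measured genes on each side and a median of -0.01, a sign that turned when arrays were centred or quantile normalized. Without the wild-type female 3 of the 10 were positive. Its largest difference was in Hmox1, which breaks haem down. Hmox1 read 0.999, 0.50 and 1.17 in transgenic males 1 and 2 and the transgenic female, -0.45, -0.57 and -0.21 in the wild-type males and 0.80 in the wild-type female, a difference of 0.93 ± 0.20 SE. Of 6 measured genes listed for P450 electron transfer other than Por, not all of them electron donors, 5 were positive, with a median of 0.16. The largest differences were in the cytochrome b5 gene Cyb5b (0.42 ± 0.19 SE, and 0.21 ± 0.18 SE in the males) and its reductase Cyb5r3 (0.36 ± 0.16 SE), and 0 of the 6 were called. In the Gadd45 family and its partners 7 of 8 were negative, with a median of -0.08, against 6 of 8 positive and 0.05 without the wild-type female. Of 21 other Cyp2 genes measured, 13 were positive with a median of 0.01, and 9 of 21 were positive in the males.

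Other sex-biased genes were set beside Cyp2b9 and Cyp2b13. Of 19 other female-biased genes measured, 18 were higher in females (median 1.63 between the sexes), and limma called 7 higher and 0 lower. Of 20 male-biased genes 19 were lower in females (median -1.69), and limma called 8 lower and 0 higher. Without the wild-type female these calls numbered 3 and 5. Between transgenic and wild-type males 12 of the 19 female-biased genes were positive (median 0.16). The hydroxyacid oxidase Hao2 stood with the Cyp2b pair, at -2.85 and -1.63 in transgenic against -4.47 to -4.16 in wild-type males. The transporter Slc22a26 did so too, at -1.71 and -3.31 against -4.68 to -4.23. A1bg did not separate the male groups, with -4.71 and -6.46 in transgenic males 1 and 2 and -6.51 to -6.02 in wild-type males. Except in transgenic male 1, these values were near the lower end of the deposited ratios, -2 on the log10 scale. A difference between the male groups may not show there. In that comparison 18 of 20 male-biased genes were negative (median -0.49) and limma called 1, the oxysterol hydroxylase Cyp7b1. It read -1.01 and -0.93 in transgenic and 0.33 to 0.48 in wild-type males (-1.38 ± 0.11 SE), and it was also called for the interaction (2.16 ± 0.20 SE, adjusted p = 0.0371). The steroid dehydrogenase Hsd3b5 differed by -1.79 ± 0.30 SE in the males and was not called. Of growth hormone and STAT5 genes, Cux2 and Trim24 rose in females (1.63 ± 0.20 SE, limma adjusted p = 0.0248, and 1.68 ± 0.22 SE, adjusted p = 0.0322), and neither was called without the wild-type female. The GH feedback inhibitor Socs2 had the largest genotype difference of that list, at -0.94 ± 0.32 SE (-0.63 ± 0.34 SE in the males).

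**Figure D5:**
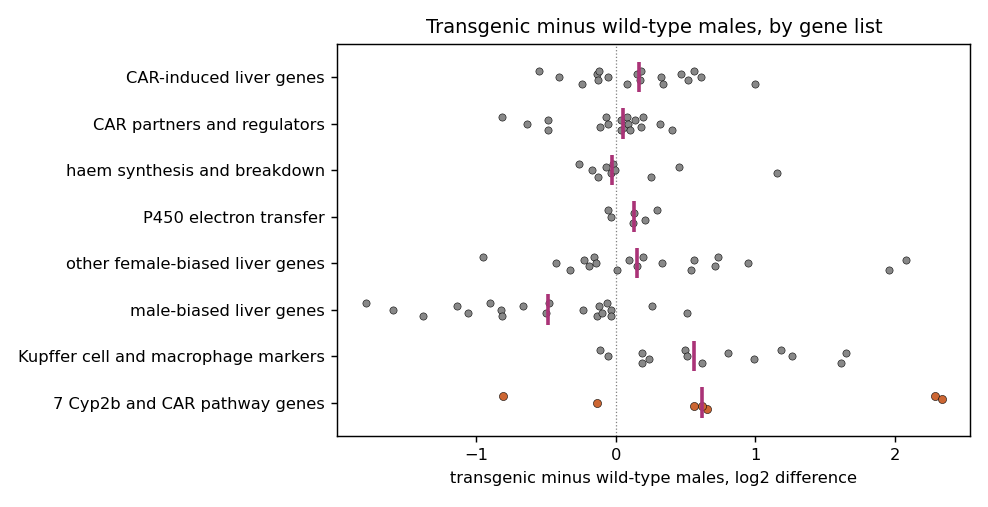
Difference between transgenic and wild-type males (horizontal axis, log2) for the genes of 7 lists and the 7 measured Cyp2b and CAR pathway genes, with a point per gene and a vertical bar at each median. The medians are 0.16 for the CAR-induced list, 0.05 for CAR partners, -0.03 for the haem list, 0.13 for P450 electron transfer and 0.16 for female-biased genes. Those of male-biased genes and Kupffer cell markers lie farther out at -0.49 and 0.56.

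The median of another liver cell type's markers was also higher in the females and the transgenic males than in the wild-type males. Of 15 Kupffer cell and macrophage markers 14 were measured, and their median read 0.79 in the wild-type female, -0.61, -0.60 and -0.12 in wild-type males 2, 3 and 4, 0.34 in the transgenic female and 0.19 and 0.12 in transgenic males 1 and 2. In the males 12 of 14 were higher in the transgenic group, with a median of 0.56, and 11 of 14 over all animals, with a median of 0.27. Limma called 0 of the 14 for genotype, in the males, for sex or for the interaction. Their part in the values of Cyp2b9, Cyp2b13 and Gadd45b was not tested, and in bulk liver a change in the number of such cells and a change of RNA per cell cannot be told apart. Hepatocyte markers had a median difference of -0.04, bile duct markers 0.13, sinusoidal endothelial markers -0.02, adipocyte markers 0.01 and red blood cell markers 0.22, the last near 0.00 in the males. The adipocyte list held 1 gene called in the males, the glucose transporter Slc2a4, at 2.30 and 2.95 in transgenic and -0.53 to -0.20 in wild-type males (2.94 ± 0.21 SE). Since ratios to a liver pool carry no level, the tissue label could not be checked from them.

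The genes whose values ran closest to Cyp2b9 were found by the root mean square difference of the log2 ratios over the 7 arrays, as a description. Cyp2b13 was nearest at 0.631, followed by the Kupffer cell scavenger receptor Marco at 0.676, Nipal1 at 0.698, Rdh16f2 at 0.861 and Rnf170 at 0.98. Marco in the transgenic males read -0.02 and 0.10, against -1.84 to -1.31 in the wild type. For Cyp2b10 the nearest were Slc16a6 at 0.119, Gstk1 at 0.147, the cytokine Il33 at 0.154, Alppl2 at 0.158 and Slc47a1 at 0.159. No Cyp2b gene was among the 5 nearest to Cyp2b10, and all 5 genes named for it were highest in the transgenic female.

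The 4 Cyp2b genes lie in 1 cluster with Cyp2a genes on chromosome 7, and their neighbours had differences on both sides of 0. In the gene order of GRCm38.p6, 37 other protein-coding genes lie between Cyp2b10 and Cyp2b19 or within 15 genes on either side, and 29 of them were measured. In the males 14 were higher and 15 lower in transgenic animals, from -0.50 to 0.54, with a median of -0.0009, and 3 were higher and 3 lower without overlap, where 11.2% and 11.4% of all features were. The lowest was Cyp2b19, the remaining gene of the family, at -0.30 and -0.23 in transgenic and 0.12 to 0.45 in wild-type males. The highest was Cyp2a4, a female-biased steroid hydroxylase that lies between Cyp2b9 and Cyp2b23, at 0.58 and -0.05 against -0.55 to 0.13, with overlap.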

How the data were processed

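The deposited table holds the authors' log10 ratio of each animal to the wild-type pool for 23574 probes on 7 arrays. The log10 base was read from the values, which end at -2 and 2. Dye swaps were part of the profiling per the labels. Their combination, the background correction, normalization, centring and signal over background are not given in the sources used here. Precision rests on having 7 arrays. Ratios were multiplied by 3.32 to give log2. Per the platform annotation 17824 probes had 1 symbol, 50 several and 5700 none. Probes of a gene were averaged, giving 22218 features. The designs below went through lmFit and eBayes of limma 3.58.1 under R 4.3.3: genotype plus sex, genotype in males alone, and genotype, sex and their interaction. Calls used 0.05 after the Benjamini-Hochberg adjustment across every feature. The fits were also run on simulated data whose noise was independent between features and arrays. Pairs of the real arrays correlated from -0.497 to 0.526, a setting that was not simulated. Promoter windows were aligned with Biopython (version 1.88), scoring 1 for a match, -1 for a mismatch, -3 to open and -1 to extend a gap. The genes, lists and tests were chosen with earlier results of these data known. The rule for naming genes took the listed genes, Zfp90, up to 4 genes of a list by smallest p between the sexes or largest genotype difference, and the 5 nearest profiles of Cyp2b9 and Cyp2b10. The values of Kdm5d, Uty, Cyp2b19 and Cyp2a4 were chosen after they had been seen. Alternatives were median centring, quantile normalization, robust eBayes, single probes, leaving out a model term, named genes alone and leaving out each animal.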

Additional observations from a re-analysis of the deposited data

Results flagged for a closer look

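Among the 4 wild-type animals, the female stood apart from the 3 males in 2 of the 7 genes, with a gap to the nearest of them that exceeded Dixon's 95% critical value for 4 samples. For Cyp2b9 the female read 1.66 and the males -2.52 to -2.27, a gap of 0.939 of the range. For Cyp2b13 it read 1.73 and the males -3.37 to -2.98, a gap of 0.925. Chance marks about 1 in 20 groups of 4 like samples. That rate does not apply here, because the group mixes 1 female with 3 males and both genes are known as female-biased. The sample that stood apart is the only female of its group, so sex and animal cannot be told apart in these flags, though the transgenic female read 1.97 and 1.64 in the same genes.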

How the results depend on the processing

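Quantile normalization lowered the features called from 7 to 4 and the genes of the list called from 2 to 1 in the males, from 78 to 47 and from 2 to 1 between the sexes (Cyp2b9 lost, adjusted p = 0.0978), and from 16 to 3 features for the interaction. Without a genotype term 0 of the listed genes were called for sex. Leaving out each animal gave 0 to 7 features and 0 to 2 listed genes for genotype over all animals (7 and 2 without either female, when males alone set the value), 0 to 55 features and 0 to 2 genes in the males, 36 to 254 features and 0 to 3 genes for sex, and 4 to 77 features and 0 to 1 gene for the interaction. The highest counts in the males and for the interaction came without wild-type male 4 and for sex without the transgenic female. The interaction cannot be fitted without either female. A male group left with 1 animal was taken to vary like the other.

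Signs turned for the sex difference of Alas1 without the transgenic female (0.29, against -1.55 without the wild-type female), and for the interaction of Cyp2b10 under quantile normalization (-0.078) and of Nr1i3 at its first probe (0.28). Where no cause is named above, the cause was not tested. The genotype difference of Gadd45b, near 0, ran from -0.37 to 0.62 over the animals left out. In the males all 64 alternative values of the 7 genes kept their direction, and over all animals 89 of 92 did. No paired analysis was possible because the groups share fewer than 2 replicate numbers in the labels.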

Other observations

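Whether the pool was made from the arrayed wild-type animals is not stated in the labels. If these 4 were pooled in equal parts, their ratios on the linear scale would average near 1. For the 7 genes that mean was 0.927 (Cyp2b9), 0.911 (Cyp2b13), 1.002 (Cyp2b10), 1.11 (Cyp2b23), 0.991 (Nr1i3), 0.985 (Alas1) and 0.969 (Gadd45b).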
